A study of Mus musculus with 5 samples.

Results

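Collagen genes were examined in RNA-seq of whole mouse hearts with and without Charme, a long noncoding RNA of muscle. A collagen gene was any gene whose symbol reads Col, a number, the letter a and a number, with at least 10 counts in at least 2 of the 5 libraries. Such a symbol is carried by 44 of the 49671 genes deposited, and 39 of the 44 passed. They comprised 11 fibrillar, 8 basement membrane and 20 other collagen genes. The remaining 5 symbols stayed under the count rule, with 0 to 1 counts per library for Col19a1, 0 to 4 for Col10a1, 0 to 8 for Col6a4, 1 to 12 for Col22a1 and 0 to 19 for Col6a5, so their genotype difference was not tested.

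The animals were C57BL6/J mice at postnatal day 2 (PN2), and the hearts of littermates were pooled by genotype before RNA extraction. CharmeWT hearts carry the unmodified locus, and CharmeKO hearts carry a Charme allele interrupted by an inserted PolyA signal. Each of the 3 CharmeWT pools held 9 hearts and each of the 2 CharmeKO pools held 3 hearts, so that genotype and pool size differ together and their effects cannot be told apart. The comparison asks how the collagen genes of the neonatal heart differ when Charme is lost.

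Collagen chains wind around each other into a triple helix, which needs glycine at a fixed spacing, the Gly-X-Y repeat. Fibrillar collagens (types I, II, III, V, XI, XXIV and XXVII) build the tension-bearing fibres of the heart wall and valves, and are made chiefly by fibroblasts. Type IV chains build the sheet-like network of the basement membrane around cardiomyocytes and vessels, where types XV and XVIII are also found. The other types coat fibrils (IX, XII, XIV, XVI, XX), form beaded filaments (VI) or short-chain networks (VIII), span the plasma membrane (XIII, XVII, XXIII, XXV), or anchor epithelia (VII). Types XXVI and XXVIII stand outside these groups.

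In the coding sequence the fibrillar genes stood apart by their long runs, and the type IV genes held the most breaks. In GENCODE M21 transcripts on GRCm38, a run was counted as at least 5 Gly-X-Y triplets in succession. The 9 fibrillar genes other than Col24a1 and Col27a1 held 1 run of 337 to 344 triplets, and in Col24a1 and Col27a1 the longest run had 216 and 217. In the 6 type IV genes the helix was broken 21 to 26 times and the longest run had 39 to 66 triplets. The longest runs of the other types had 23 to 113 triplets, a range that holds those of type IV, and these types had 1 to 20 breaks. The basement membrane members Col15a1 and Col18a1 fell within both ranges of the other types, with a longest run of 30 triplets each and 10 and 13 breaks. The stretches below, each of 30 codons (90 bases) from coding exons, show an unbroken helix in the abundant fibrillar members and in Col12a1, and the end of a run in the basement membrane member Col4a1 and in Col9a2. Glycine codons, which begin with GG, are in capitals and codons are counted from the start codon. Col1a1 lies at chr11:94936224-94953042 (plus strand, codons 168 to 197 shown), Col3a1 at chr1:45311538-45349706 (plus, codons 164 to 193), Col12a1 at chr9:79598991-79718831 (minus, codons 2805 to 2834), Col4a1 at chr8:11198423-11312826 (minus, codons 148 to 177) and Col9a2 at chr4:121039385-121055322 (plus, codons 504 to 533).
Col1a1: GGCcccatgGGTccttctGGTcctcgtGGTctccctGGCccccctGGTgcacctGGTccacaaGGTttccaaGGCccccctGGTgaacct
Col3a1: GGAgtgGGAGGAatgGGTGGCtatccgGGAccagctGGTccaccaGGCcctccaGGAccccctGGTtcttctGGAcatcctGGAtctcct
Col12a1: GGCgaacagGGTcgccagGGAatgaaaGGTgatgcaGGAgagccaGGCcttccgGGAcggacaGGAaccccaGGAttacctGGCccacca
Col4a1: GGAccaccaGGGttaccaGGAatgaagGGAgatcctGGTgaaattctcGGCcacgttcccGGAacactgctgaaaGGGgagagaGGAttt
Col9a2: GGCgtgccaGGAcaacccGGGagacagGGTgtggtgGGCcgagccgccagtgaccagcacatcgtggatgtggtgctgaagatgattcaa

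In Col1a1 and Col12a1 the capitals recur at every triplet over all 30 codons, 10 glycine codons in each. In Col3a1 the same stretch held 12, since glycine also fills some Y positions. In Col4a1 the regular spacing ended at codon 162, the last of a run of 40 triplets, and the next run, of 17 triplets, began at codon 173 within the same stretch. The choice of glycine codon also differed, as GGT made up 50.6% of the glycine codons of Col1a1, 49.9% of those of Col1a2 and 39.9% of those of Col3a1, against a range of 14.4% to 38.6% over the other 36 members. The runs along every coding sequence are drawn in the map of Gly-X-Y runs.

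**Figure D1:**
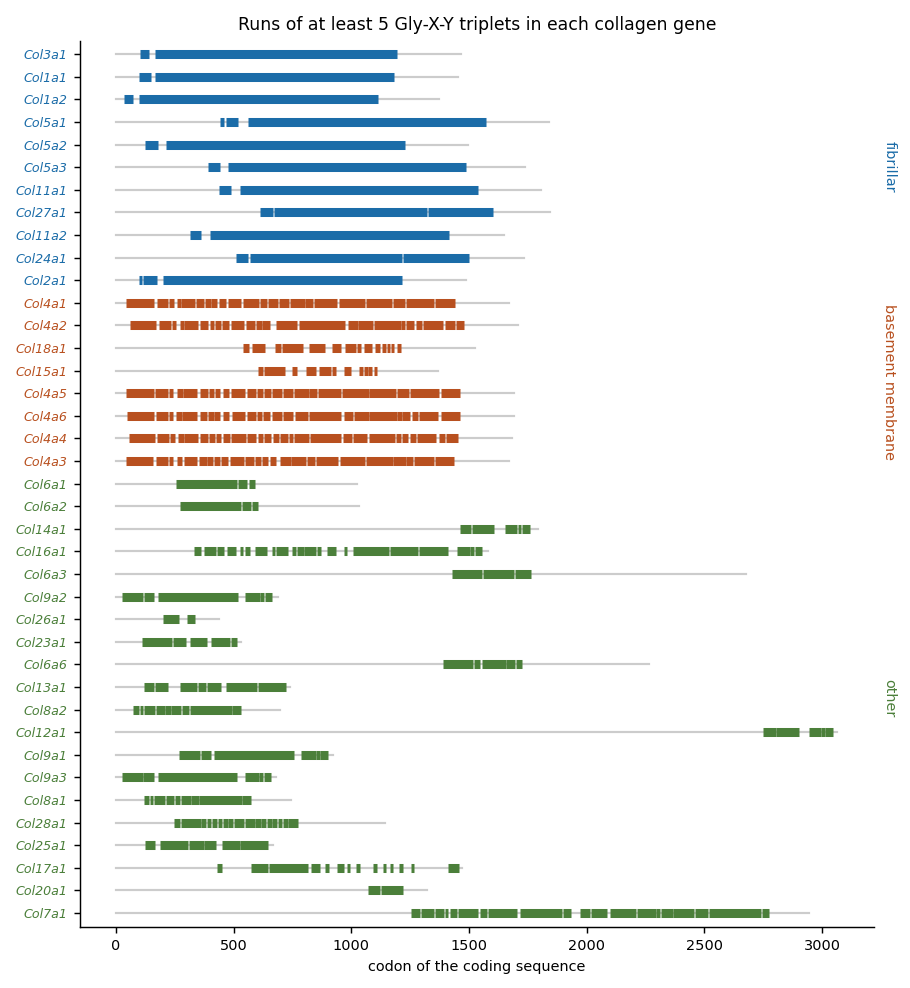
Map of Gly-X-Y runs in 39 collagen genes. The x axis is the codon of the coding sequence, grey lines span each coding sequence and coloured blocks mark runs of at least 5 triplets (blue fibrillar, orange basement membrane, green other). Most fibrillar genes show 1 long block of 337 to 344 triplets, whereas type IV genes are broken 21 to 26 times.

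The libraries held between 16721055 and 21646378 fragments counted on genes, and collagen genes took 0.416% to 0.867% of them. Charme itself, the targeted gene, had 810, 183 and 276 counts in CharmeWT pools 1 to 3 and 57 and 79 counts in CharmeKO pools 1 and 2, so both CharmeKO pools lay below every CharmeWT pool. CharmeKO pool 2 stood apart by salivary gland genes. The summed level of a list of 8 such genes was 0.116 to 0.193 FPKM, a level scaled to gene length and library size, in CharmeWT pools, 148 FPKM in CharmeKO pool 1 and 11345 FPKM in CharmeKO pool 2. CharmeKO pool 1 had the lowest scaling factor of the TMM normalization, 0.845 against 1.02 to 1.09 in the other pools. Results below are therefore also given for each CharmeKO pool by itself.

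In CharmeWT hearts the collagen genes differed widely in level, with 4 members at a mean of 100 FPKM or more, 9 between 10 and 100, 9 between 1 and 10 and 17 below 1. Col4a1 was the highest at 188 FPKM ± 26.9 (SD, n = 3) and supplied 20.0% of the summed collagen level. Col3a1 followed at 157 ± 15.3, Col4a2 at 132 ± 22.1 and Col1a1 at 117 ± 5.93 (each n = 3). These 4 genes together made up 63.2% of the sum, and the 10 highest made up 90.9%. The order among neighbours at the top was not separated by the pools. The lowest CharmeWT value of Col4a1, 163 FPKM, lay under the highest of Col3a1, 175 FPKM. The ranges of Col4a2 and Col1a1 also overlapped. The order further rests on the exon lengths used for FPKM, 7464 bp for Col4a1 and 9816 bp for Col3a1. In counts Col3a1 lay above Col4a1 in CharmeWT pools 1 and 3 (35271 against 24996 and 29575 against 27142). In CharmeWT pool 2 Col3a1 lay below (25174 against 28505). The coefficient of variation between CharmeWT pools had a median of 15.3% over the 39 members against 13.3% over all 14880 genes tested. It was lowest in the beaded-filament genes of type VI, at a median of 5.88%.

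**Figure D2:**
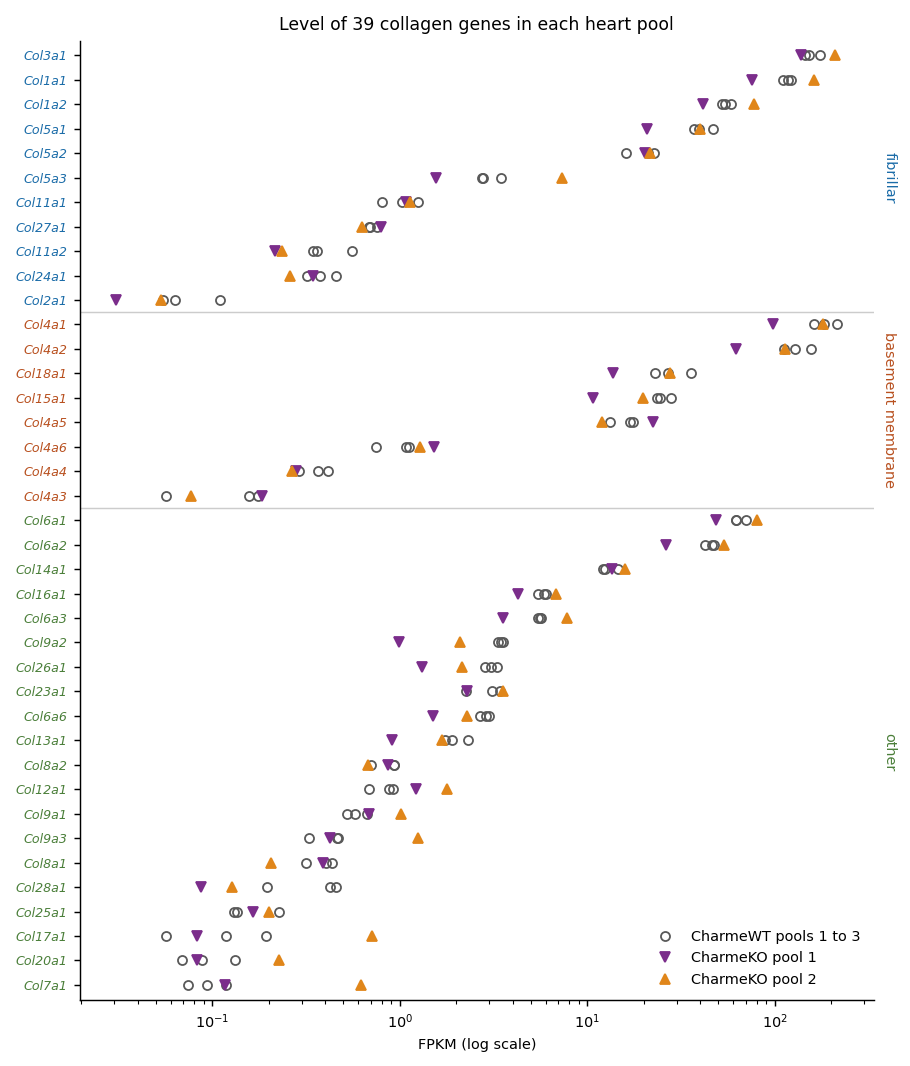
Level of each collagen gene in each pool. The x axis is FPKM on a log scale, open circles are the 3 CharmeWT pools, purple triangles CharmeKO pool 1 and orange triangles CharmeKO pool 2, with genes ordered by their CharmeWT mean within each class. Col4a1, Col3a1, Col4a2 and Col1a1 lie above 100 FPKM in every CharmeWT pool, and CharmeKO pool 1 lies to the left of CharmeKO pool 2 in 31 of 39 genes.

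No collagen gene was called as changed between the genotypes. The call was made with edgeR's quasi-likelihood test at a Benjamini-Hochberg adjusted p under 0.1 over all 14880 genes tested, together with a mean level of 1 FPKM or more in either genotype. It was met by 2.05% of all genes and by 0 of the 39 members, of which 15 were under 1 FPKM in both genotypes. The lowest adjusted p was 0.139, for Col12a1. At an unadjusted p under 0.05 there were 10 members, 4 higher and 6 lower in CharmeKO, or 25.6% against 18.6% of all genes. The edgeR likelihood ratio test called 3 members, Col12a1 as higher and Col9a2 and Col26a1 as lower, where it called 6.27% of all genes. DESeq2 called the same 3 and Col15a1 as lower, where it called 7.54% of all genes. The median log2 fold change, CharmeKO over CharmeWT, was 0.03 for fibrillar, -0.41 for basement membrane and -0.01 for other collagen genes, beside 0.02 for all genes tested.

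Judged by the pools alone, both CharmeKO pools lay above every CharmeWT pool in 3 members (7.69%, against 17.8% of all genes) and below every CharmeWT pool in 9 members (23.1%, against 18.2%). In the other 27 members the genotypes overlapped. With 3 pools against 2 the smallest exact p for a single gene is 0.1 in a single direction, and here both directions were counted. In whole-heart RNA, fewer cells of a type and less collagen RNA per cell cannot be told apart.

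The most abundant fibrillar genes did not separate the genotypes. Col1a1, which encodes the major chain of type I collagen, had 118, 122 and 110.3 FPKM in CharmeWT pools 1 to 3, and 75.9 and 163 FPKM in CharmeKO pools 1 and 2. The CharmeKO pools fell on either side of all CharmeWT pools, and the log2 fold change was 0.03 (standard error, SE, 0.29, adjusted p = 0.961). Col1a2, its partner chain, had 58.2, 52.2 and 54.3 FPKM in CharmeWT and 41.3 and 77.3 FPKM in CharmeKO. The pools were split alike, with a log2 fold change of 0.11 (SE 0.26, adjusted p = 0.840). Type III collagen, encoded by Col3a1, is the fine-fibre collagen that accompanies type I. Its level was 175, 145 and 152 FPKM in CharmeWT pools and 139 and 210.3 FPKM in CharmeKO pools, again 1 pool below and 1 above CharmeWT, with a log2 fold change of 0.15 (SE 0.25, adjusted p = 0.767).

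The ratio of Col1a1 to Col1a2, in FPKM, was 2.03, 2.34 and 2.03 in CharmeWT pools and 1.84 and 2.10 in CharmeKO pools. The mean ratios of 2.13 ± 0.178 (SD, n = 3) and 1.97 ± 0.187 (SD, n = 2) differed by less than the spread between pools. The size of this ratio rests on the exon lengths used for FPKM, 6563 bp for Col1a1 and 12426 bp for Col1a2. In counts the CharmeWT pools held 15929, 14146 and 14313 for Col1a1 and 14884, 11464 and 13351 for Col1a2. In type I collagen the chains assemble with a larger share of the Col1a1 product, which this RNA ratio does not measure.

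Among the less abundant fibrillar genes, those with the lowest p were Col11a2 and Col5a1. Col5a1 encodes a type V chain that starts fibril assembly. Its FPKM was 37.3, 46.7 and 39.6 in CharmeWT and 20.8 and 40.0 in CharmeKO. CharmeKO pool 1 lay under CharmeWT and CharmeKO pool 2 within it, with a log2 fold change of -0.44 (SE 0.26, adjusted p = 0.393). Col11a2, a type XI chain of cartilage fibrils, was measured at 0.558, 0.362 and 0.346 FPKM in CharmeWT and 0.216 and 0.235 FPKM in CharmeKO, from 21 to 79 counts. Both CharmeKO pools were below every CharmeWT pool, with a log2 fold change of -0.90 (SE 0.38, adjusted p = 0.251).

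Col5a3 was named after its values were seen, as the fibrillar gene with the widest gap between the CharmeKO pools. Its levels were 3.47, 2.76 and 2.78 FPKM in CharmeWT pools, 1.56 FPKM in CharmeKO pool 1 and 7.34 FPKM in CharmeKO pool 2. The CharmeKO pools thus differed 4.70-fold, with CharmeWT between them. The remaining fibrillar genes, Col2a1, Col5a2, Col11a1, Col24a1 and Col27a1, had log2 fold changes from -0.76 to 0.11, and none had an unadjusted p under 0.05. A list of 8 fibroblast markers had a summed level of 350, 261 and 296 FPKM in CharmeWT pools and 422 and 352 FPKM in CharmeKO pools, and 0 of its 8 genes were called by edgeR's quasi-likelihood test (1 had an unadjusted p under 0.05, and the likelihood ratio test and DESeq2 each called 1). The part of fibroblast number in the fibrillar levels was not tested.

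Of the 8 basement membrane members 6 had a negative log2 fold change, 1 passed an unadjusted p under 0.05 (12.5%, against 18.6% of all genes) and 0 passed after adjustment. Type IV is built of Col4a1 and Col4a2 chains in most tissues. Col4a1 had 163, 216 and 184 FPKM in CharmeWT pools and 98.1 and 181 FPKM in CharmeKO pools. CharmeKO pool 1 was under every CharmeWT pool and CharmeKO pool 2 within their range, with a log2 fold change of -0.43 (SE 0.28, adjusted p = 0.433). For Col4a2 the levels were 112, 155 and 128 FPKM in CharmeWT and 62.0 and 114 FPKM in CharmeKO. CharmeKO pool 2 again lay inside the CharmeWT range, at its lower end, and the log2 fold change was -0.58 (SE 0.28, adjusted p = 0.291).

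Col15a1 was the basement membrane member with the lowest p. Type XV collagen is linked to basement membranes of muscle and capillaries. Its levels were 24.3, 27.9 and 23.6 FPKM in CharmeWT and 10.8 and 19.7 FPKM in CharmeKO. Both CharmeKO pools were below every CharmeWT pool, pool 1 by more, and the log2 fold change was -0.73 (SE 0.25, adjusted p = 0.188). DESeq2 called it (adjusted p = 0.0789). Col18a1, the source of the endostatin fragment, had 23.0, 35.7 and 27.1 FPKM in CharmeWT and 13.7 and 27.8 FPKM in CharmeKO. Only CharmeKO pool 1 left the CharmeWT range, with a log2 fold change of -0.46 (SE 0.30, adjusted p = 0.416).

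The 3 pairs of type IV genes lie head to head in the genome. Col4a1 and Col4a2 on chromosome 8 overlap by 22 bases at their starts on opposite strands, and the fragments were counted by strand. Col4a4 and Col4a3 on chromosome 1 are separated by 71 bases, and Col4a6 and Col4a5 on chromosome X by 1308 bases. Before the length and GC correction given below, the Col4a1 to Col4a2 ratio was steady within each genotype. It was 1.46, 1.39 and 1.44 in CharmeWT pools and 1.58 and 1.59 in CharmeKO pools. The genotypes did not overlap in this ratio. For it 0.1 is the smallest exact p that 3 against 2 pools allow in a single direction, and no direction was set beforehand. The ratio was chosen with the levels known.

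The X-linked pair had positive values. Col4a5 and Col4a6 had log2 fold changes of 0.12 and 0.51 (adjusted p = 0.830 and 0.335). Col4a6 had 1.08, 0.745 and 1.12 FPKM in CharmeWT and 1.52 and 1.28 FPKM in CharmeKO, both CharmeKO pools above every CharmeWT pool. Col4a5 was 9.44 to 17.7 times as abundant in FPKM, with 17.0, 13.2 and 17.5 FPKM in CharmeWT and 22.5 and 12.1 FPKM in CharmeKO. Here CharmeKO pool 1 was the higher of the CharmeKO pools, opposite to Col4a1. Col4a3 and Col4a4, chains of kidney and other specialised basement membranes, stayed under 0.412 FPKM in all pools with log2 fold changes of -0.09 and -0.39.

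The summed level of 8 endothelial markers was 199 to 247 FPKM in CharmeWT pools, 176 FPKM in CharmeKO pool 1 and 206 FPKM in CharmeKO pool 2. That of 8 mural markers, of pericytes and smooth muscle, was 129 to 156 FPKM in CharmeWT pools, 107 FPKM in CharmeKO pool 1 and 90.9 FPKM in CharmeKO pool 2. None of these markers passed edgeR's quasi-likelihood test, and none was at 0. An unadjusted p under 0.05 was found for 3 endothelial markers, with Kdr and Flt1 at log2 fold changes of -0.64 and -0.56 and Emcn at 0.52, and for 4 mural markers, all with negative values, of which Notch3 had the lowest p (-0.99). The likelihood ratio test and DESeq2 each called 0 endothelial markers and 1 mural marker. Their part in the lower basement membrane levels was not tested.

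The classes were also summed within each pool. Fibrillar genes summed to 415, 388 and 385 FPKM in CharmeWT pools and 301 and 522 FPKM in CharmeKO pools. Basement membrane genes summed to 340.2, 449 and 382 FPKM in CharmeWT pools and 209 and 356 FPKM in CharmeKO pools. The fibrillar sum over the basement membrane sum was therefore 1.22, 0.863 and 1.01 in CharmeWT pools against 1.44 and 1.47 in CharmeKO pools. Although the CharmeKO pools disagreed on either sum, both had a higher ratio than every CharmeWT pool. The ratio is a description, since it was chosen with the levels known. Other collagen genes summed to 161, 149 and 148 FPKM in CharmeWT pools and 107 and 183 FPKM in CharmeKO pools.

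**Figure D3:**
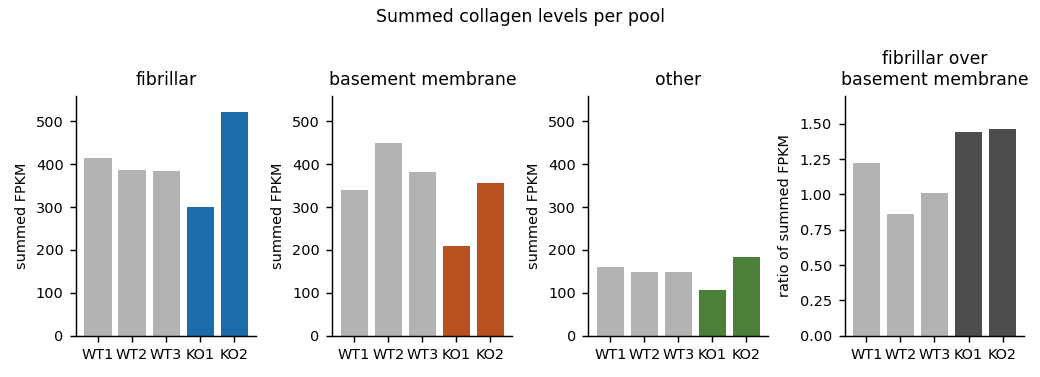
Summed FPKM of fibrillar, basement membrane and other collagen genes in each pool, and the ratio of the fibrillar to the basement membrane sum. Grey bars are CharmeWT pools 1 to 3 and coloured or dark bars CharmeKO pools 1 and 2, and all axes start at 0. CharmeKO pool 1 has the lowest sum in every class, while the ratio is 1.44 and 1.47 in CharmeKO pools and at most 1.22 in CharmeWT pools.

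The other collagen types held the genes nearest to the threshold. Col12a1 encodes type XII, a fibril-associated collagen of tissues under load. It had 0.689, 0.914 and 0.877 FPKM in CharmeWT pools and 1.22 and 1.78 FPKM in CharmeKO pools, from 216 to 603 counts. Both CharmeKO pools were above every CharmeWT pool, and the log2 fold change was 0.86 (SE 0.24, adjusted p = 0.139). The likelihood ratio test and DESeq2 called it (adjusted p = 0.0492 and 0.0392). A list of 6 epicardial markers summed to 30.5, 11.1 and 18.4 FPKM in CharmeWT pools and 43.2 and 39.2 FPKM in CharmeKO pools. Both CharmeKO pools were above every CharmeWT pool for Upk3b, Msln, Upk1b and Lrrn4, whereas Wt1 and Tbx18 overlapped. edgeR's quasi-likelihood test called 0 of the 6, of which 4 had an unadjusted p under 0.05, and the likelihood ratio test and DESeq2 each called 1. A list of 8 skeletal muscle markers, 6 of them tested, summed to 5.81, 8.35 and 5.31 FPKM in CharmeWT pools and 15.2 and 27.7 FPKM in CharmeKO pools. edgeR's quasi-likelihood test called 2 of them as higher. The part of either list in the Col12a1 level was not tested.

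Col9a2 encodes a chain of type IX, which coats the type II fibrils of cartilage and the eye. Its levels were 3.45, 3.33 and 3.53 FPKM in CharmeWT and 0.984 and 2.09 FPKM in CharmeKO. The CharmeWT pools were close together and both CharmeKO pools lay below them, with a log2 fold change of -1.13 (SE 0.33, adjusted p = 0.145). The likelihood ratio test and DESeq2 called it (adjusted p = 0.0447 and 0.0277). The other type IX chains, Col9a1 and Col9a3, had log2 fold changes of 0.55 and 1.06 (adjusted p = 0.374 and 0.256). Of 11 cartilage markers Matn1 and Snorc were at 0 in every pool, and the list summed to 5.88 to 8.08 FPKM in CharmeWT pools and 4.22 and 8.82 FPKM in CharmeKO pools. Acan, the cartilage proteoglycan aggrecan, had 0.676, 0.652 and 1.09 FPKM in CharmeWT and 0.0664 and 0.342 FPKM in CharmeKO, with a log2 fold change of -1.87 (adjusted p = 0.137), and Comp had one of -1.02 (adjusted p = 0.254). Of the other cartilage markers tested, Matn4 had a log2 fold change of -0.56, whereas Sox9, Cnmd and Hapln1 had positive values of 0.09, 0.71 and 0.82. In CharmeKO pool 2 Ucma had 2.08 FPKM, against at most 0.275 FPKM in the other pools. The part of cartilage cells in the Col9a2 level was not tested. Col2a1, the defining collagen of cartilage, stayed at or under 0.110 FPKM.

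Type VI collagen, the beaded filament of the pericellular matrix, was the most abundant of the other types, and its 3 highest genes split the CharmeKO pools. Col6a1 had 70.2, 61.9 and 62.3 FPKM in CharmeWT and 48.3 and 80.5 FPKM in CharmeKO, with a log2 fold change of -0.01 (SE 0.23, adjusted p = 0.988). Col6a2 had 47.7, 46.4 and 42.3 FPKM in CharmeWT and 26.2 and 53.9 FPKM in CharmeKO, with a log2 fold change of -0.18 (SE 0.27, adjusted p = 0.737). In both, and in Col6a3, CharmeKO pool 1 was below and CharmeKO pool 2 above every CharmeWT pool. Col6a6, named after its values were seen, had 2.88, 2.69 and 3.01 FPKM in CharmeWT and 1.51 and 2.29 FPKM in CharmeKO, both below CharmeWT, with a log2 fold change of -0.58 (SE 0.23, adjusted p = 0.232). Col6a1 and Col6a2 lie 85.2 kb apart on 1 strand of chromosome 10. Their ratio in FPKM was 1.47, 1.33 and 1.47 in CharmeWT pools, 1.85 in CharmeKO pool 1 and 1.5 in CharmeKO pool 2. Its size rests on exon lengths of 4380 bp for Col6a1 and 8326 bp for Col6a2, and in counts Col6a2 was the higher in every pool. Col14a1, which encodes the fibril-associated type XIV, had 14.5, 12.1 and 12.4 FPKM in CharmeWT and 13.5 and 15.9 FPKM in CharmeKO, with a log2 fold change of 0.18 (SE 0.18, adjusted p = 0.610).

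Several low genes of the other types are named here after their values were seen. Col26a1 had 3.08, 2.85 and 3.30 FPKM in CharmeWT and 1.31 and 2.14 FPKM in CharmeKO, both below CharmeWT, with a log2 fold change of -0.82 (adjusted p = 0.155). Col28a1, a collagen of peripheral nerve, had 46, 17 and 41 counts in CharmeWT pools and 6 and 14 counts in CharmeKO pools, and a log2 fold change of -1.69 (adjusted p = 0.165). A list of 5 Schwann cell markers summed to 0.809 to 1.96 FPKM in CharmeWT pools, 1.35 FPKM in CharmeKO pool 1 and 5.48 FPKM in CharmeKO pool 2, where Sox10 had 286 counts against 8 to 18 in the other pools. Col26a1 and Col28a1 were both lower in each CharmeKO pool than in every CharmeWT pool, and Col28a1 stayed under 0.456 FPKM.

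Col7a1 and Col17a1, which anchor stratified epithelia to their basement membrane, were higher in CharmeKO pool 2 than in every other pool. Col7a1 had 25, 17 and 15 counts in CharmeWT pools, 17 in CharmeKO pool 1 and 142 in CharmeKO pool 2. Col17a1 had 24, 6 and 14 counts in CharmeWT pools, 7 in CharmeKO pool 1 and 95 in CharmeKO pool 2. CharmeKO pool 1 lay within the CharmeWT range for each, and the CharmeKO pools differed 5.29-fold and 8.59-fold in FPKM. Their log2 fold changes of 2.01 and 1.75 (adjusted p = 0.149 and 0.243) rest on CharmeKO pool 2. The same pool had 12.9 FPKM of Krt14, a keratin of squamous epithelium, which was 0.161 to 0.663 FPKM in the other pools. The 6 skin and squamous epithelium markers summed to 0.294 to 0.763 FPKM in CharmeWT pools, 0.680 FPKM in CharmeKO pool 1 and 15.8 FPKM in CharmeKO pool 2, with Dsg3 at 0 in every pool. CharmeKO pool 2 was also the pool with the highest sum of salivary gland genes, 11345 FPKM. The part of cells of either tissue in the Col7a1 and Col17a1 counts was not tested.

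Across the collagen genes the CharmeKO pools stood apart from each other. CharmeKO pool 2 was above CharmeKO pool 1 in 31 of 39 collagen genes (79.5%, against 50.5% of all genes), with a median log2 ratio of 0.68 against 0.01. CharmeKO pool 1 was the lowest of the 5 pools in 20 members (51.3%, against 33.9%), and CharmeKO pool 2 the highest in 16 (41.0%, against 17.6%). In 8 members, namely Col1a1, Col1a2, Col3a1, Col5a3, Col6a1, Col6a2, Col6a3 and Col16a1, pool 1 lay below and pool 2 above every CharmeWT pool (20.5%, against 6.81%). Against the CharmeWT mean, the median log2 ratio was -0.41 in pool 1 and 0.11 in pool 2 for fibrillar genes. It was -0.64 and -0.28 for basement membrane genes, and -0.39 and 0.28 for the other types. Basement membrane genes were therefore the class with a negative median in both CharmeKO pools.

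**Figure D4:**
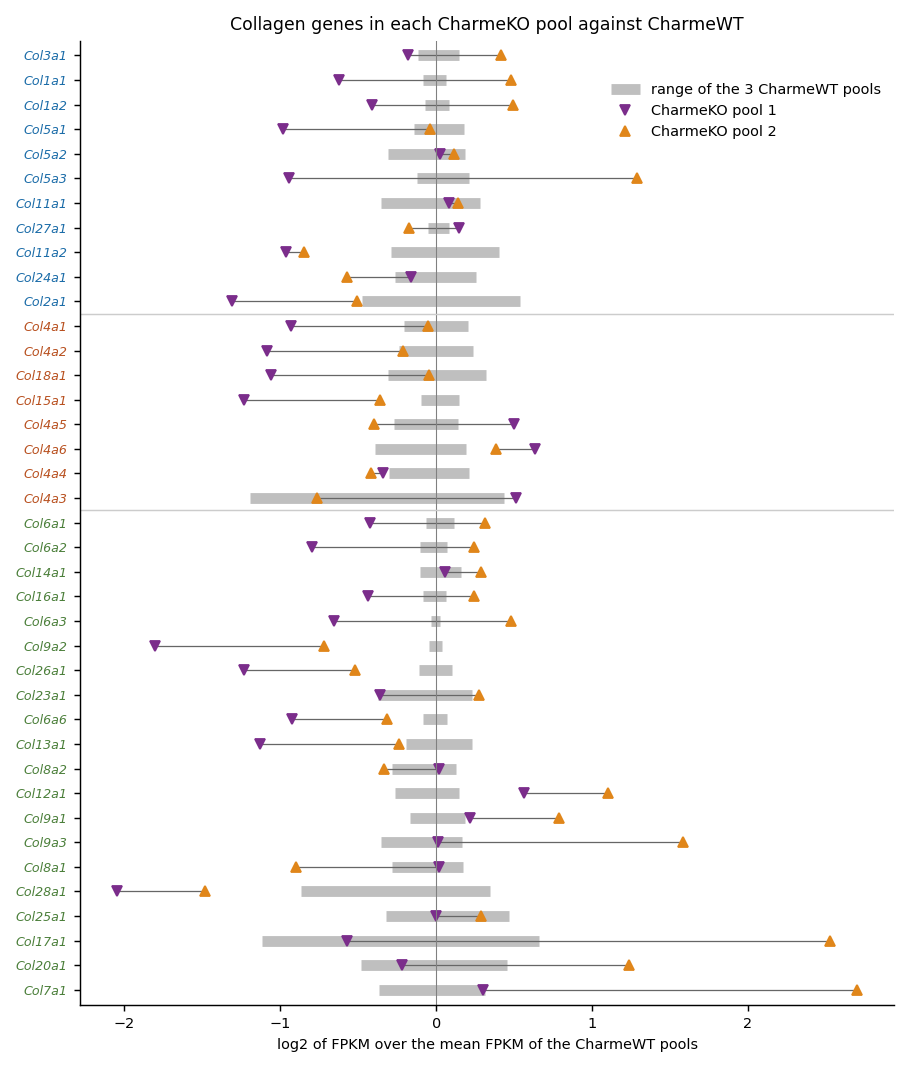
Each CharmeKO pool against CharmeWT. The x axis is the log2 ratio of FPKM to the mean of the 3 CharmeWT pools, grey bars span the CharmeWT pools, and triangles joined by a line are CharmeKO pool 1 (purple) and pool 2 (orange), with gene names coloured blue for fibrillar, orange for basement membrane and green for other types. The CharmeKO pools fall on opposite sides of the grey bar in 8 genes in which pool 1 is lower, among them Col1a1, Col3a1 and Col6a1.

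The class medians depended on the CharmeKO pool kept. Without CharmeKO pool 2 the median log2 fold change was -0.42 for fibrillar, -0.65 for basement membrane and -0.43 for other collagen genes. All genes tested then had a median of -0.02. Without CharmeKO pool 1 the class medians were 0.11, -0.28 and 0.28, beside -0.006 for all genes. In these fits the lone CharmeKO pool is assumed to vary like the CharmeWT pools. Leaving out CharmeWT pool 1, 2 or 3 gave 0 collagen calls each by edgeR's quasi-likelihood test, among only 2, 187 and 0 genes called in all.

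Collagen genes were longer and richer in G and C than most genes. Their median exon length was 7464 bp against 4239 bp over all genes tested, and their median GC content 56.1% against 49.8%. When trends on length and GC content were removed from each pool, the median log2 ratio of CharmeKO pool 2 to pool 1 fell from 0.68 to 0.29 over the 39 members, and was 0.01 for basement membrane genes. The medians against CharmeWT became 0.09 and 0.21 in CharmeKO pools 1 and 2 for fibrillar genes, -0.20 and -0.22 for basement membrane genes, and 0.08 and 0.31 for the other types. The class medians of the log2 fold change became 0.20, -0.15 and 0.19, beside -0.03 for all genes. With this correction Col12a1 and Col9a2 were called (adjusted p = 0.0858 and 0.0967). The ratio of fibrillar to basement membrane sums remained higher in CharmeKO, at 1.33 and 1.52 against 1.24, 0.881 and 1.02 in CharmeWT pools. The Col4a1 to Col4a2 ratio became 1.47, 1.404 and 1.47 in CharmeWT pools, 1.503 in CharmeKO pool 1 and 1.611 in CharmeKO pool 2. The genotypes still did not overlap in it. The CharmeKO pools were no longer alike, however, and CharmeKO pool 1 lay close to the highest CharmeWT pool.

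**Figure D5:**
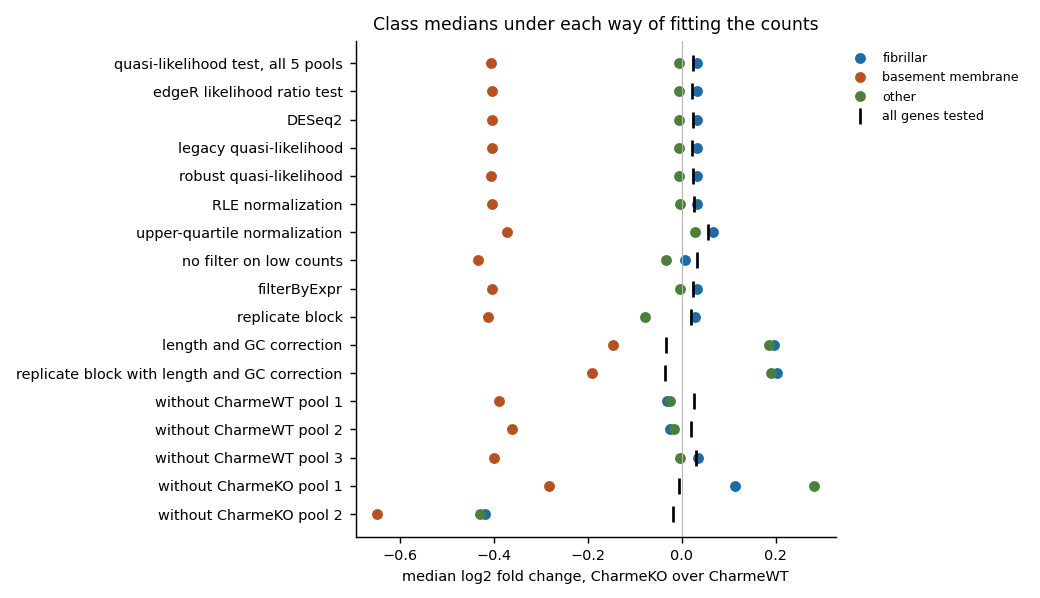
Median log2 fold change of each collagen class under each way of fitting the counts. The x axis is the median log2 fold change, CharmeKO over CharmeWT, coloured points are the classes and black ticks all genes tested. Basement membrane genes have the lowest median in every fit, from -0.65 without CharmeKO pool 2 to -0.15 with the length and GC correction, while the fibrillar median ranges from -0.42 to 0.20.

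Genes that modify, export, process, cross-link, degrade or bind collagen were taken from 7 lists of 74 genes, 70 of which were tested. edgeR's quasi-likelihood test called 0 of them (2.05% of all genes), with 5 higher and 12 lower at an unadjusted p under 0.05 (24.3%, against 18.6% of all genes). The likelihood ratio test called 4 (5.71%, against 6.27% of all genes) and DESeq2 6 (8.57%, against 7.54%), all lower in CharmeKO. Both CharmeKO pools lay below every CharmeWT pool in 22 of the 70 genes (31.4%, against 18.2% of all genes) and above in 4 (5.71%, against 17.8%).

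The most abundant genes of collagen modification, folding, processing and cross-linking did not pass the test. P4hb, the shared subunit of prolyl 4-hydroxylase, had 131, 133 and 117 FPKM in CharmeWT and 118 and 160.0 FPKM in CharmeKO (log2 fold change 0.14, adjusted p = 0.723). Serpinh1, the collagen chaperone HSP47, had 265, 244 and 212 FPKM in CharmeWT and 322 and 225 FPKM in CharmeKO (log2 fold change 0.19, adjusted p = 0.657). Pcolce, which enhances propeptide cleavage, had a log2 fold change of 0.39 (adjusted p = 0.333), and Loxl1, a cross-linking oxidase, one of -0.33 (adjusted p = 0.462). Serpinh1 was highest in CharmeKO pool 1, the pool in which the type I and III genes were lowest.

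Among genes of matrix breakdown and the basement membrane partners, more fold changes were negative than positive. Mmp2, a gelatinase that cleaves denatured collagen and type IV, was the most abundant breakdown gene. It had 56.6, 49.6 and 57.7 FPKM in CharmeWT pools and 25.5 and 39.2 FPKM in CharmeKO pools, both below CharmeWT, with a log2 fold change of -0.76 (SE 0.21, adjusted p = 0.139). Of the 15 basement membrane partners tested, both CharmeKO pools were below every CharmeWT pool in 8 (53.3%, against 18.2% of all genes) and above in 1 (6.67%, against 17.8%). Sparc, the most abundant of them, had a log2 fold change of -0.08 (adjusted p = 0.871). The most abundant receptor gene, Itgb1, had 171, 172 and 169 FPKM in CharmeWT and 294 and 164 FPKM in CharmeKO (log2 fold change 0.42, adjusted p = 0.379).

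Besides Mmp2, the likelihood ratio test called Pxdn, Hspg2 and Fkbp10, which are named after their values were seen. Pxdn, the peroxidasin that cross-links type IV collagen, had the lowest adjusted p of the 70 genes, 0.115 by edgeR's quasi-likelihood test. Its levels were 22.4, 30.9 and 28.2 FPKM in CharmeWT and 14.4 and 17.2 FPKM in CharmeKO, a log2 fold change of -0.78 (SE 0.20). Hspg2, the basement membrane proteoglycan perlecan, had 36.9, 60.3 and 45.9 FPKM in CharmeWT and 20.0 and 29.9 FPKM in CharmeKO, a log2 fold change of -0.93 (SE 0.26, adjusted p = 0.139). Fkbp10, a collagen-folding isomerase, had a log2 fold change of -0.81 (SE 0.26, adjusted p = 0.168). In these 4 genes both CharmeKO pools lay below every CharmeWT pool, as in Col15a1.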

How the data were processed

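Poly(A) RNA of pooled PN2 hearts was sequenced from stranded libraries. The authors trimmed the reads with cutadapt and Trimmomatic, aligned them to GRCm38 with STAR and deposited raw counts, whole fragments per gene of Ensembl release 87 taken from the reverse-strand column. The deposited FPKM table was not used. FPKM was computed from the counts with TMM library sizes and the union exon length of GENCODE M21, to which 49411 genes were matched. R 4.3.3, edgeR 4.0.16 and DESeq2 1.42.0 were used. Genes passing the rule of 10 counts in 2 pools, 14880 in all, were tested with edgeR (quasi-likelihood) and adjusted by Benjamini-Hochberg. A call needed an adjusted p under 0.1 and 1 FPKM or more as the mean of either genotype. Standard errors are the size of the log2 fold change over the square root of F. The scripts were tested on simulated data. P-values set the genotype difference against a spread between pools that is fitted for each gene and shared by both genotypes. Counts carry no molecular identifiers. The alternatives changed the test (likelihood ratio, DESeq2, legacy or robust quasi-likelihood), the scaling (RLE, upper-quartile), the count filter (none, or filterByExpr), or the call (without the FPKM limit, or at 0.05). Others added a replicate block, a correction of each pool for exon length and GC share (splines, 4 degrees of freedom), or both, or left out a pool. The length and GC values were had for 14852 of the genes tested. Named genes are the 3 most abundant and the 2 of lowest p in each class, the genes called, and the most abundant gene of each pathway list, with others marked in the text. The members and lists were chosen with earlier results of these data known. 1 coding stretch is not reported here.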

Additional observations from a re-analysis of the deposited data

How the results depend on the processing

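Basement membrane genes had the lowest class median in every fit. The calls moved with the test, and the class medians moved with the CharmeKO pool kept. In place of 0 collagen genes, the likelihood ratio test called 1 higher and 2 lower, DESeq2 1 higher and 3 lower, and the quasi-likelihood test with the length and GC correction 1 higher and 1 lower. In place of 0 lower pathway genes these called 4, 6 and 2. Leaving out 1 pool gave 0 to 3 collagen genes as higher and 0 to 14 as lower, and 0 to 9 pathway genes as higher and 0 to 21 as lower, with the lone CharmeKO pool assumed to vary like CharmeWT. Over those fits the median log2 fold change ranged from -0.42 to 0.11 for fibrillar, -0.65 to -0.28 for basement membrane and -0.43 to 0.28 for other collagen genes. The lowest values came without CharmeKO pool 2 and the highest without CharmeKO pool 1. With the length and GC correction the medians were 0.20, -0.15 and 0.19.

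The labels do not say that pool numbers pair the samples, and same-numbered pools correlated at 0.137 and 0.0778 in their deviations from the genotype means. With the replicate block, 0 collagen genes and 2 lower pathway genes were called, among 210 genes in all. The median of the other types was then -0.079. The block with the length and GC correction gave medians of 0.20, -0.19 and 0.19 and 0 collagen calls.

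The sign turned under at least 1 alternative for 18 of the 39 members, 10 of them among the 27 followed gene by gene, and none was called with all pools. Leaving out 1 pool, the log2 fold change ranged from -0.19 to 0.42 for Col3a1, -0.63 to 0.48 for Col1a1, -0.42 to 0.50 for Col1a2, -0.43 to 0.31 for Col6a1 and -0.80 to 0.25 for Col6a2, lowest without CharmeKO pool 2 and highest without CharmeKO pool 1. The same held for ranges of -0.95 to 1.29 for Col5a3, -0.66 to 0.48 for Col6a3 and -0.61 to 2.49 for Col17a1. For Col4a3 and Col4a5 the ranges were -0.79 to 0.47 and -0.40 to 0.49, lowest without CharmeKO pool 1 and highest without CharmeKO pool 2. Without CharmeWT pool 3 it was -0.0075 for Col1a1, and without CharmeWT pool 1 it was 0.0552 for Col6a1 and 0.21 for Col4a3, which was at 0.084 without CharmeWT pool 3. With the replicate block it was -0.11 for Col1a1, -0.0784 for Col6a3 and 0.21 for Col4a3. For Col6a1 it was 0.026 with upper-quartile scaling, 0.17 with the length and GC correction and 0.14 with block and correction. For Col6a2 it was 0.0297 with the correction, and for Col4a3 it was 0.0608 with the correction and 0.32 with both. The cause was not tested. Depth limits the low genes most, such as Col2a1 with 4 to 18 counts per pool and Col20a1 with 6 to 26.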
